A study of Mus musculus with 11 samples.

Results

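The 44 genes described here encode the machinery that copies nuclear DNA and the enzymes that make its nucleotides. They were chosen by gene symbol, and each of the 44 symbols was found in exactly 1 row of a table of RNA abundance for 37991 genes. All 44 also passed the filter on low values, which left 13342 genes for testing. By role they comprise 13 genes of the replicative helicase and its partners, 5 of origin licensing, 6 of the sliding clamp and its loader, 8 of the polymerases and primase, 5 of single-strand binding and of flap and nick processing, 5 of nucleotide supply and 2 of chromatin assembly.

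DNA replication starts at origins bound by the origin recognition complex, where CDC6 and CDT1 load the MCM helicase in G1 phase and geminin later blocks reloading. In S phase, CDC45 and the GINS complex join MCM2 to MCM7 to form the active helicase, primase and DNA polymerase alpha lay down primers, and polymerases delta and epsilon extend them with the help of the PCNA clamp. Many of these genes are targets of E2F transcription factors, which retinoblastoma family proteins restrain in cells that leave the cell cycle. Cycling neural stem cells transcribe them, and post-mitotic neurons and glia need little of most of the products.

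The cells had been cultured from the frontal cortex of C57BL/6J mouse embryos at E14.5 (mid-gestation), and the labels name no mutant allele or transgene. Day 0 cells came from a neural stem cell proliferation medium (group NSC, 3 libraries). The other cultures were washed and kept for 4 days in 1 of 3 differentiation media, each with 2 mM GlutaMAX-1. Group Astrocyte (3 libraries) received DMEM with N-2 and FBS at 1% each. Group Neuron (3 libraries) received Neurobasal with B-27 at 2%, and group Oligodendrocyte (2 libraries) the same base with 30 ng/mL of T3, a thyroid hormone. Group names stand for the medium. No library analysed here came from cells held in proliferation medium until day 4, so time in culture and the change of medium cannot be told apart in a comparison with NSC. The labels do not say whether replicates were separate cultures, so p-values measure only the spread between these libraries, which may be technical.

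Abundance is given as CPM, reads of a gene scaled to a common library total, and 1 read was worth an estimated 0.0151 to 0.0203 CPM. Pearson correlations across the tested genes, which are not independent replicates, were 0.990 to 0.999 between libraries of a group and 0.816 to 0.961 between groups. Neural progenitor markers (6 genes) summed to 3422 to 3547 CPM in NSC, 3192 to 3567 in Astrocyte, 1553 to 1939.6 in Neuron and 2148 to 2198 in Oligodendrocyte. Astrocyte markers (8 genes) summed to 14186 to 15683 CPM in Astrocyte, 8989 to 9828 in Neuron, 3386 to 3819 in Oligodendrocyte and 1594 to 1662 in NSC. Singly they differed in direction between Astrocyte and Neuron. Gfap, Aqp4 and Gja1 (3 genes) were called higher in Astrocyte, where 40.3% of all tested genes were. S100b, Aldh1l1, Slc1a3, Slc1a2 and Aldoc (5 genes) were called lower, where 22% were. Mature oligodendrocyte markers (7 genes) summed to 2575 to 2945 CPM in Oligodendrocyte but also to 2582 to 2796 in Neuron. Neuron markers (7 genes) summed to 897 to 1177 CPM in Neuron, above the 763 to 795 of Astrocyte and the 789 to 800.04 of Oligodendrocyte, but overlapping the 850 to 941 of NSC. Of the 6 tested, 5 were called higher in Neuron than in NSC, where 5809 of all 13342 tested genes were. Tubb3, Dcx, Rbfox3 and Snap25 (4 genes) were also called higher than in NSC in both other media. There 6407 (Astrocyte) and 6412 (Oligodendrocyte) of all tested genes were. Tubb3 was called higher in both of these media than in Neuron. Oligodendrocyte precursor markers (5 genes) summed to 1196 to 1709 CPM in Neuron, 939.8 to 1024 in Oligodendrocyte, 480.5 to 559.8 in Astrocyte and 796 to 877 in NSC. Microglia markers (6 genes) never exceeded a sum of 1.32 CPM and endothelial markers (5 genes) 7.37. Mesenchymal markers (6 genes) reached 42.5 CPM in Astrocyte, 41.8 in Neuron, 10.1 in Oligodendrocyte and 1.12 in NSC. Only 1 of these 6, Pdgfrb, passed the filter on low values. What cells of other types may add to the day 4 values of the module was not tested.

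All 44 genes were lower at day 4 than at day 0, in each of the 3 media, and no library of a day 4 medium reached the lowest NSC library for any of them, where 36.9%, 39.7% and 36.5% of the tested genes lay wholly below NSC in Astrocyte, Neuron and Oligodendrocyte. Together they summed to 4079 to 4353 CPM in NSC. The sums were 670 to 708 CPM in Astrocyte, 580 to 623 in Neuron and 758 to 770 in Oligodendrocyte, or 16.3%, 14.52% and 18.3% of the NSC mean. In bulk RNA, fewer cells that express a gene and less RNA per cell cannot be told apart.

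Differences were tested with limma on log2(CPM + 1) and called at a Benjamini-Hochberg adjusted p under 0.05. In Astrocyte vs NSC all 44 were called lower, where 35.6% of the tested genes were called lower. In Neuron vs NSC the count was again 44, against a background of 39.6%. Oligodendrocyte vs NSC also gave 44, against 32.2%. A log2 fold change here subtracts group means on the log2(CPM + 1) scale, so it is too small for genes at low CPM. Their median over the 44 genes was -2.87 in Astrocyte, -2.84 in Neuron and -2.73 in Oligodendrocyte, where the medians over all tested genes were 0.15, 0.06 and 0.19. Called lower by 2-fold or more were 39 genes in Astrocyte (12.3% of all tested genes), 41 in Neuron (13.8%) and 40 in Oligodendrocyte (10.7%). These 3 comparisons share the NSC libraries.

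The genes fell by very different amounts. For 13 of them the fall was at least 8-fold in all 3 media on the log2(CPM + 1) scale: Mcm3, Mcm5, Mcm6, Mcm10, Cdc6, Cdt1, Pold1, Pole, Pole2, Lig1, Rrm2, Tk1 and Chaf1b. Cdc45 and Gmnn, which kept at most 11.9% and 11.6% of their NSC mean CPM, missed this limit on that scale only. At the other end, Gins4, Orc2, Orc5, Rfc2, Rpa1 and Rpa3 fell by less than 2-fold on that scale in at least 1 medium. Gins4 and Orc5 did so in all 3. Rpa3 was at the limit, since it kept at most 48.2% of its NSC mean CPM. The 7 proliferation markers (Mki67, Ccnb1, Ccna2, Cdk1, Aurkb, Birc5 and Plk1) moved with the module: all 7 were called lower in each medium, and their summed level went from 1721 to 1767 CPM in NSC to 47.4 to 58.8 in Astrocyte, 27.2 to 39.9 in Neuron and 55.7 to 58.3 in Oligodendrocyte. The part of fewer dividing cells in the falls was not tested.

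**Figure D1:**
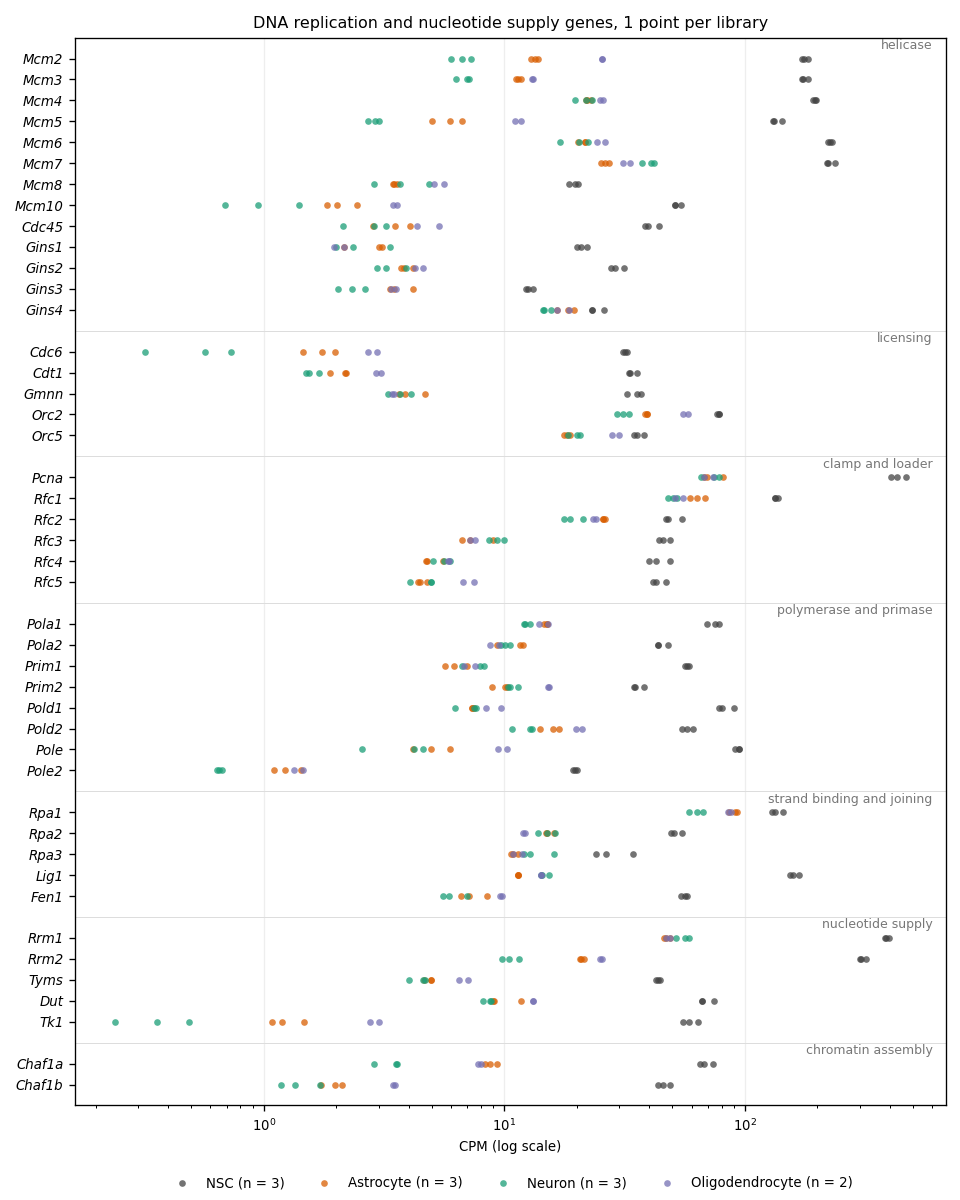
CPM of the 44 genes in each library on a logarithmic axis, 1 point per library, grouped by role (NSC, Astrocyte and Neuron n = 3, Oligodendrocyte n = 2). The NSC points lie to the right of every day 4 point in each of the 44 rows, by the widest margin for Tk1 and the narrowest for genes such as Gins4 and Orc5.

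Because these genes fell together, their promoters were searched for the 8-base E2F words TTTCCCGC, TTTCGCGC, TTTGCCGC and TTTGGCGC on both strands. The window ran from 250 bases before to 50 bases after the start (RefSeq, GRCm38.p6), and 36 of the 44 genes had an entry. At least 1 word was present in 13 of the 36 (36.1%), against 2.61% of 27025 gene symbols with an entry and 4.76% of the 9367 tested genes with one. The 13 were Mcm3, Mcm5, Mcm6, Mcm7, Mcm8, Gins3, Cdc6, Cdt1, Rfc3, Pola1, Pold1, Pole2 and Lig1, that is 6 of 9 helicase genes with an entry, 2 of 4 licensing genes, 3 of 6 polymerase and primase genes, 1 of 5 clamp and loader genes, 1 of 5 strand binding and joining genes, and none of the 5 nucleotide supply or 2 chromatin assembly genes. The sequence CCAAT was present in 22 of 36 (61.1%), against 41.1% of all symbols, and TTTGAA in 5 of 36 (13.9%), against 20.2%. A match describes these letters only, and a missing match says nothing about binding.

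The 200 bases before the start are shown 5′ to 3′ on the gene's own strand for 6 genes, with the E2F words in capitals. They were picked to set the helicase genes Mcm5, Mcm6 and Mcm7 beside the licensing gene Cdc6, the primer polymerase gene Pola1 and Tk1, which had the largest fall and no word.
Mcm5, GRCm38.p6 chr8:75109309-75109508, + strand: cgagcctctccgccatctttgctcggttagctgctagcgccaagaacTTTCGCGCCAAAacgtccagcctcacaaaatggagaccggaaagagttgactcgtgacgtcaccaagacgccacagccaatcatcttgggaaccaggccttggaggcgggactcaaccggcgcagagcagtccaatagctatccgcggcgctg
Mcm6, chr1:128359706-128359905, - strand: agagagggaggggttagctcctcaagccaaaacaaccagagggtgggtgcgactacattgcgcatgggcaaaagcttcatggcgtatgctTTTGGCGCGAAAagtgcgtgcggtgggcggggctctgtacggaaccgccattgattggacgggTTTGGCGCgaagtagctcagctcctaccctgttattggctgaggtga
Mcm7, chr5:138171884-138172083, - strand: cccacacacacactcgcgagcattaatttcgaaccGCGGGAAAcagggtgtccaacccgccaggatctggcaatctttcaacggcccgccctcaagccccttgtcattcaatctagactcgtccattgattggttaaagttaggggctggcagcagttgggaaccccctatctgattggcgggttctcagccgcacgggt
Cdc6, chr11:98907951-98908150, + strand: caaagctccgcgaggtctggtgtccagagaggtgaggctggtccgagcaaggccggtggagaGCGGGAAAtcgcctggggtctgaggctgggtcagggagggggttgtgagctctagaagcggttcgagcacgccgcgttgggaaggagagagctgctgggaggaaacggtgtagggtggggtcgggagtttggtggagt
Pola1, chrX:93632156-93632355, - strand: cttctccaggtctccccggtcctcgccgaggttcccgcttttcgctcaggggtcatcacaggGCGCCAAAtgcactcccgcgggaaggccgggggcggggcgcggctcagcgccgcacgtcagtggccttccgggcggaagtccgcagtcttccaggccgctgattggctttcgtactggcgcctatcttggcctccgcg
Tk1, chr11:117826015-117826214, - strand: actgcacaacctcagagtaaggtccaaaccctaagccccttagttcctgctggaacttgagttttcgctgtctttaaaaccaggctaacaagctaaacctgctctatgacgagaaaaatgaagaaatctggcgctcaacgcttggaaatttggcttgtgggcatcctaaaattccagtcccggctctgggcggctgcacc

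In Mcm5 the words TTTCGCGC and GCGCCAAA (TTTGGCGC on the other strand) overlap, and in Mcm6 TTTGGCGC and GCGCGAAA overlap, with a further TTTGGCGC nearer the start. Another Mcm7 word lies after the start, outside the bases shown. The median log2 fold change of the 13 genes with a word was -3.32 in Astrocyte, -3.37 in Neuron and -3.09 in Oligodendrocyte. For the 23 without one it was -2.83, -2.79 and -2.52. For CCAAT the medians were -2.70, -2.53 and -2.68 in the 22 genes with it and -3.10, -3.20 and -2.88 in the 14 without. For TTTGAA they were -2.77, -3.0 and -2.42 in the 5 with it and -3.01, -2.87 and -2.77 in the 31 without. These medians are a description and were not tested.

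Among the helicase genes, Mcm5 fell most and Gins4 least on the mean log2 fold change over the 3 media. MCM5 is a subunit of the MCM2 to MCM7 ring that unwinds DNA. Mcm5 (ENSMUSG00000005410, mm9 chromosome 8, 77633427 to 77652338) stood at 133, 131 and 142 CPM in NSC. It stood at 5.97, 5.00 and 6.65 CPM in Astrocyte, 3.00, 2.89 and 2.72 in Neuron, and 11.7 and 11.03 in Oligodendrocyte. The 4 groups did not overlap, with Neuron lowest and Oligodendrocyte highest at day 4. The log2 fold change was -4.32 (SE 0.0882, adjusted p 5.46e-14) in Astrocyte, -5.14 (SE 0.0882, adjusted p 1.55e-14) in Neuron and -3.46 (SE 0.0986, adjusted p 1.48e-12) in Oligodendrocyte.

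GINS4, also called SLD5, is a subunit of the GINS complex that completes the active helicase. Gins4 (ENSMUSG00000031546, mm9 chromosome 8, 24337082 to 24348140) gave 23.2, 23.0 and 26.1 CPM in NSC, 18.3, 16.6 and 19.5 in Astrocyte, 14.49, 15.6 and 14.6 in Neuron, and 16.6 and 18.6 in Oligodendrocyte. The day 4 libraries all lay below NSC, by a small margin. The log2 fold changes were -0.39 (adjusted p 0.000446), -0.66 (adjusted p 3.79e-06) and -0.43 (adjusted p 0.000534), so 75.2% ± 5.93 (SD, n = 3), 61.8% ± 2.48 (SD, n = 3) and 72.9% ± 5.93 (SD, n = 2) of the NSC mean was left in Astrocyte, Neuron and Oligodendrocyte.

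The other 11 helicase genes lay between these on that mean, but not in every medium. In Oligodendrocyte, Mcm3 (-3.66) and Mcm10 (-3.56) fell further than Mcm5 (-3.46). As a share of the NSC mean CPM, Mcm10 kept 4.00%, 1.94% and 6.73% in Astrocyte, Neuron and Oligodendrocyte. Mcm5 kept more in each, at 4.34%, 2.12% and 8.40%. Mcm10, which helps to activate the loaded helicase, fell from 52.3 ± 1.90 CPM (SD, n = 3) in NSC to 1.01 ± 0.359 (SD, n = 3) in Neuron. Cdc45, the helicase cofactor, kept 6.73% to 11.9% of its NSC mean. Mcm8, which acts with MCM9 mainly in recombination repair rather than in the replicative ring, kept 17.97% to 27.6%. Gins1, Gins2 and Gins3 kept 9.78% to 29.0%, so Gins4 was the member of its complex with the smallest fall in every medium.

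Among the licensing genes, Cdc6 and Cdt1, which load the helicase, fell 8-fold or more in all 3 media, while Orc2 and Orc5, subunits of the origin recognition complex, fell far less. Other subunits of that complex, which are not members, differed in this. Orc1 kept 3.07%, 2.96% and 4.06% of its NSC mean in Astrocyte, Neuron and Oligodendrocyte, and Orc6 kept 32.1%, 32.1% and 36.0%. Orc3 kept 93.4%, 87.1% and 93.5% of its NSC mean in these media, and Orc4 kept 76.3%, 92.9% and 82.4%. Orc3 was called lower in Neuron alone, and Orc4 in Astrocyte and Oligodendrocyte. Cdc6 (ENSMUSG00000017499, mm9 chromosome 11, 98769115 to 98785254) measured 32.3, 31.2 and 31.8 CPM in NSC, 1.45, 1.75 and 1.97 in Astrocyte, 0.57, 0.32 and 0.73 in Neuron, and 2.71 and 2.97 in Oligodendrocyte. Every day 4 library was under 3 CPM, and the 3 media did not overlap. In Neuron its log2 fold change was -4.42 (SE 0.106, adjusted p 1.93e-13), with -3.59 (adjusted p 1.16e-12) in Astrocyte and -3.09 (adjusted p 2.39e-11) in Oligodendrocyte.

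Orc5 (ENSMUSG00000029012, mm9 chromosome 5, 21992303 to 22056247) measured 35.5, 34.4 and 38.1 CPM in NSC, 17.7, 18.2 and 18.8 in Astrocyte, 18.4, 20.7 and 20.0 in Neuron, and 30.0 and 28.1 in Oligodendrocyte. The Oligodendrocyte libraries were nearest to NSC and above both other media. The log2 fold change there was -0.30 (SE 0.0759, adjusted p 0.00248), against -0.94 (adjusted p 1.41e-08) in Astrocyte and -0.84 (adjusted p 5.26e-08) in Neuron. Orc2 kept 72.9% ± 2.23 (SD, n = 2) of its NSC mean in Oligodendrocyte, 50.1% ± 0.461 (SD, n = 3) in Astrocyte and 40.1% ± 2.18 (SD, n = 3) in Neuron. Gmnn, which encodes geminin, the inhibitor of CDT1, fell to 9.83% to 11.6% of its NSC mean, and none of its day 4 differences was called.

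In the clamp and loader group, PCNA is the ring that tethers polymerases to DNA and the RFC complex opens and loads it. Per kilobase of exon, Pcna had the highest day 0 level of the 44 genes, at 181 CPM per kb. Its mean of 435 ± 31.2 CPM (SD, n = 3) at day 0 fell to 72.9 ± 7.52 under the astrocyte medium, 72.6 ± 6.34 under the neuron medium (n = 3 each) and 70.6 ± 4.24 under the oligodendrocyte medium (n = 2). The 3 media overlapped, and the difference between Oligodendrocyte and Neuron was -0.04 (95% interval -0.24 to 0.17, log2).

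Rfc5, a small subunit of the loader, fell most of this group on the mean log2 fold change over the 3 media. Rfc5 (ENSMUSG00000029363, mm9 chromosome 5, 117828112 to 117839056) gave 42.7, 41.5 and 46.9 CPM in NSC, 4.48, 4.37 and 4.79 in Astrocyte, 4.06, 4.94 and 4.95 in Neuron, and 6.76 and 7.49 in Oligodendrocyte. Oligodendrocyte lay above the other media, which overlapped. Its log2 fold changes against NSC were -3.01 (adjusted p 9.67e-13) in Astrocyte, -2.99 (adjusted p 1.24e-12) in Neuron and -2.46 (adjusted p 3.34e-11) in Oligodendrocyte.

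Rfc2, another small subunit, fell least of this group. Rfc2 (ENSMUSG00000023104, mm9 chromosome 5, 135058560 to 135074198) gave 47.1, 48.1 and 54.7 CPM in NSC, 25.7, 26.3 and 25.8 in Astrocyte, 17.7, 21.2 and 18.7 in Neuron, and 23.3 and 24.1 in Oligodendrocyte. All 3 media were below NSC, Neuron the lowest. Its fold changes against NSC were, in log2, -0.92 (adjusted p 7.28e-08), -1.34 (adjusted p 1.37e-09) and -1.04 (adjusted p 7.41e-08) in Astrocyte, Neuron and Oligodendrocyte. Rfc1, the large subunit, behaved more like Rfc2 than like Rfc3, Rfc4 and Rfc5, keeping 37.0% to 47.0% of its NSC mean, where those 3 kept 10.4% to 20.1%.

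Of the polymerase and primase genes, Pole fell most and Prim2 least on the mean log2 fold change over the 3 media. POLE is the catalytic subunit of polymerase epsilon, which extends the leading strand. Pole (ENSMUSG00000007080, mm9 chromosome 5, 110715325 to 110766493) read 94.7, 94.2 and 91.0 CPM in NSC, 4.94, 5.96 and 4.17 in Astrocyte, 4.22, 2.57 and 4.61 in Neuron, and 9.38 and 10.3 in Oligodendrocyte. Astrocyte and Neuron overlapped, and Oligodendrocyte was above both. Against NSC, its log2 fold changes were -3.98 (SE 0.147, adjusted p 1.17e-11), -4.32 (SE 0.147, adjusted p 5.70e-12) and -3.12 (SE 0.165, adjusted p 6.51e-10) in Astrocyte, Neuron and Oligodendrocyte. Pole2, its accessory subunit, was at 0.67, 0.64 and 0.65 CPM in the Neuron libraries, from 19.7 ± 0.465 (SD, n = 3) in NSC. Pole2 kept 6.37%, 3.32% and 7.09% of its NSC mean CPM in Astrocyte, Neuron and Oligodendrocyte. Pole kept 5.38%, 4.07% and 10.5%, so on that measure Pole2 fell further in Neuron and Oligodendrocyte.

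PRIM2 is the regulatory subunit of primase. Prim2 (ENSMUSG00000026134, mm9 chromosome 1, 33510656 to 33726631) read 34.9, 34.5 and 38.1 CPM in NSC, 8.90, 10.3 and 10.1 in Astrocyte, 10.4, 10.6 and 11.4 in Neuron, and 15.3 and 15.3 in Oligodendrocyte. Oligodendrocyte again stood above the other media. The log2 fold changes were -1.78 (adjusted p 4.35e-11), -1.64 (adjusted p 1.09e-10) and -1.18 (adjusted p 1.50e-08) in Astrocyte, Neuron and Oligodendrocyte. Prim1, the catalytic primase subunit, fell further and kept 10.9% to 13.3%. Pola1 and Pola2 of polymerase alpha kept 16.6% to 24.4%, and Pold1, the catalytic subunit of polymerase delta, kept 8.60% to 10.9%, where its partner Pold2 kept 21.1% to 35.3%.

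Among the strand binding and joining genes, Lig1, the ligase that seals nicks between Okazaki fragments, fell most. Lig1 (ENSMUSG00000056394, mm9 chromosome 7, 13862632 to 13896782) was at 154, 158 and 167 CPM in NSC, 11.4, 11.4 and 11.4 in Astrocyte, 14.3, 15.4 and 14.3 in Neuron, and 14.2 and 14.2 in Oligodendrocyte. Astrocyte was the lowest medium, whereas 28 of the 44 genes had their lowest mean in Neuron. Its fold changes against NSC were, in log2, -3.69 (adjusted p 8.36e-15) in Astrocyte, -3.36 (adjusted p 1.87e-14) in Neuron and -3.41 (adjusted p 9.15e-14) in Oligodendrocyte. Fen1, the flap endonuclease that trims those fragments before ligation, kept 10.98% to 17.2% of its NSC mean.

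RPA1, the large subunit of the protein that coats single-stranded DNA, also serves repair and recombination. Rpa1 (ENSMUSG00000000751, mm9 chromosome 11, 75111668 to 75161826) was at 133, 130.01 and 145 CPM in NSC, 86.2, 91.3 and 92.9 in Astrocyte, 58.4, 66.7 and 63.3 in Neuron, and 87.3 and 85.0 in Oligodendrocyte. Neuron was the lowest group and did not overlap the other media. Against NSC, its log2 fold changes were -0.59 (adjusted p 1.25e-06), -1.10 (adjusted p 1.59e-09) and -0.65 (adjusted p 1.58e-06) in Astrocyte, Neuron and Oligodendrocyte. Rpa2 kept 23.4% to 29.7%, and Rpa3, the smallest subunit, kept 38.9% to 48.2%.

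In the nucleotide supply group, Tk1 had the largest fall of all 44 genes. It encodes the cytosolic thymidine kinase of the salvage pathway. Tk1 (ENSMUSG00000025574, mm9 chromosome 11, 117676840 to 117687406) measured 58.3, 55.5 and 63.9 CPM in NSC, 1.08, 1.19 and 1.47 in Astrocyte, 0.49, 0.36 and 0.24 in Neuron, and 2.76 and 3.01 in Oligodendrocyte. The media did not overlap, and the Neuron mean was 0.613% ± 0.211 (SD, n = 3) of the NSC mean. The log2 fold changes were -4.75 (SE 0.0979, adjusted p 5.75e-14) in Astrocyte, -5.47 (SE 0.0979, adjusted p 1.87e-14) in Neuron and -3.95 (SE 0.109, adjusted p 1.15e-12) in Oligodendrocyte.

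Dut, whose product removes dUTP from the pool, fell least of this group on the mean log2 fold change over the 3 media. In Neuron alone, Rrm1 fell less (-2.79). Dut (ENSMUSG00000027203, mm9 chromosome 2, 125072926 to 125084344) measured 66.4, 66.6 and 74.7 CPM in NSC, 9.0, 9.02 and 11.8 in Astrocyte, 8.71, 8.83 and 8.17 in Neuron, and 13.2 and 13.2 in Oligodendrocyte. Oligodendrocyte stood above the other media. Its fold changes against NSC were, in log2, -2.69 (adjusted p 6.61e-12), -2.87 (adjusted p 4.01e-12) and -2.31 (adjusted p 1.45e-10) in Astrocyte, Neuron and Oligodendrocyte. Tyms, which makes dTMP from dUMP, kept 10.2% to 15.5% of its NSC mean.

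Both chromatin assembly genes fell strongly. CHAF1A and CHAF1B are the large and the middle subunit of CAF-1, which places new histones behind the fork. Chaf1b (ENSMUSG00000022945, mm9 chromosome 16, 93884146 to 93906360) gave 45.6, 43.5 and 48.6 CPM in NSC, 1.73, 1.98 and 2.11 in Astrocyte, 1.18, 1.71 and 1.35 in Neuron, and 3.46 and 3.52 in Oligodendrocyte. Its levels rose in the order Neuron, Astrocyte, Oligodendrocyte with no overlap, though the step from Neuron to Astrocyte was narrow. Against NSC, its log2 fold changes were -4.0 (adjusted p 1.56e-13), -4.29 (adjusted p 1.00e-13) and -3.38 (adjusted p 3.20e-12) in Astrocyte, Neuron and Oligodendrocyte.

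Chaf1a (ENSMUSG00000002835, mm9 chromosome 17, 56179827 to 56206973) gave 65.01, 67.3 and 74.0 CPM in NSC, 8.68, 8.33 and 9.32 in Astrocyte, 3.57, 2.87 and 3.53 in Neuron, and 7.76 and 8.0 in Oligodendrocyte. Neuron was far below the other media. The log2 fold changes were -2.83 (adjusted p 1.41e-12), -4.01 (adjusted p 7.70e-14) and -2.97 (adjusted p 4.22e-12) in Astrocyte, Neuron and Oligodendrocyte.

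Subunits of the same complex did not fall in proportion. Within MCM2 to MCM7, the level left at day 4 ran in Neuron from 2.12% of NSC for Mcm5 to 17.7% for Mcm7, in Astrocyte from 4.34% for Mcm5 to 11.7% for Mcm7, and in Oligodendrocyte from 7.40% for Mcm3 to 14.4% for Mcm2. On a scale of CPM per kilobase of exon, the highest of the 6 exceeded the lowest by 2.14 times in NSC, 12.6 times in Neuron, 4.21 times in Astrocyte and 2.56 times in Oligodendrocyte. For the GINS genes the ratio on that scale was 3.81 in NSC and 14.1, 13.5 and 12.1 in Astrocyte, Neuron and Oligodendrocyte. For the primase and polymerase alpha genes it was 2.74 in NSC and lower in each medium, at 1.27, 1.62 and 2.33. These ratios are descriptions of group means and were not tested.

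Ribonucleotide reductase joins a large RRM1 and a small RRM2 subunit to make deoxyribonucleotides. Rrm1 kept 12.1% ± 0.332 of its NSC mean under the astrocyte medium, 14.3% ± 0.868 under the neuron medium and 12.3% ± 0.340 under the oligodendrocyte medium (SD, n = 3, 3 and 2). Rrm2 kept less, namely 6.83% ± 0.135, 3.44% ± 0.275 and 8.19% ± 0.110. Per kilobase, Rrm2 exceeded Rrm1 by 3.14 times in NSC, whereas in Neuron Rrm1 exceeded Rrm2 by 1.32 times.

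**Figure D2:**
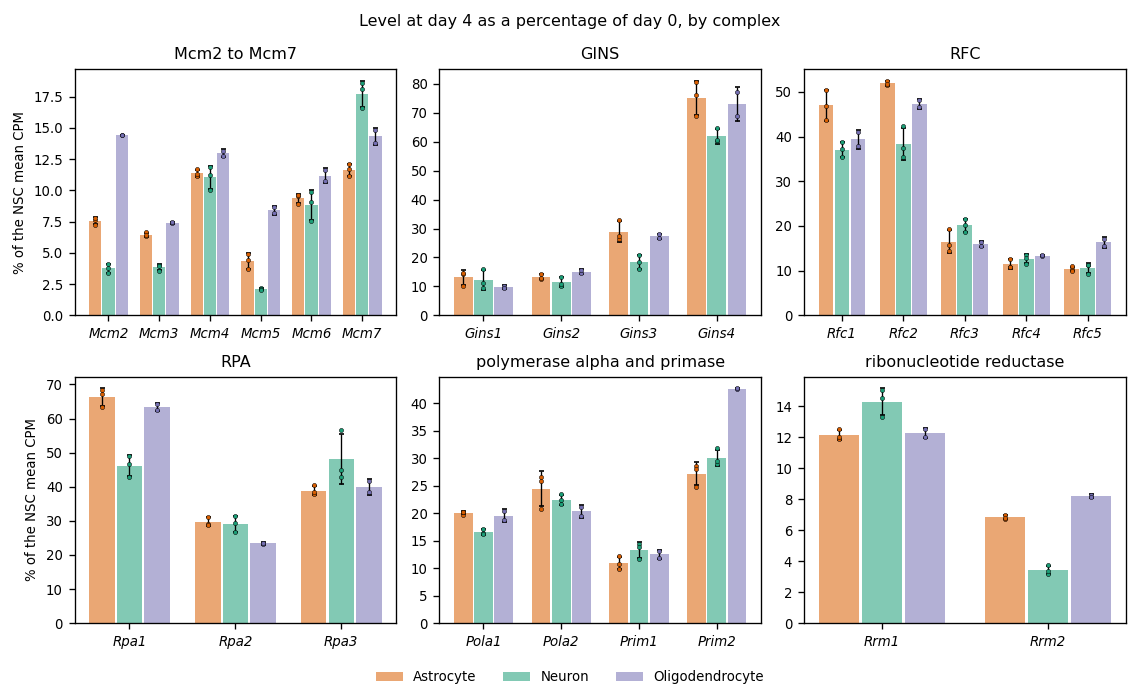
Level of each subunit at day 4 as a percentage of its NSC mean CPM, for 6 complexes; bars are group means, points are libraries and error bars are 1 SD of the day 4 libraries (Astrocyte and Neuron n = 3, Oligodendrocyte n = 2). Vertical scales differ between panels. Gins4, Rfc1 and Rfc2 stand well above their partners, and the Mcm2, Mcm3 and Mcm5 bars are lowest in Neuron while Mcm7 is highest there.

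The day 4 media were then compared with each other, which keeps day and culture time equal. Most differences were small beside the falls from day 0. In both comparisons with Neuron most called members were lower in Neuron, and so were most calls over all tested genes. The latter were 5371 of 8301 in Astrocyte vs Neuron and 5859 of 9006 in Oligodendrocyte vs Neuron. In Oligodendrocyte vs Neuron, which differ by T3, 31 of 44 genes were higher and 4 lower, where 43.9% and 23.6% of all tested genes were called higher and lower. The median difference over the module was 0.44 on the log2 scale, where that of all tested genes was 0.15. At least 2-fold higher were 8 genes (8.96% of all tested genes): Mcm2 (1.80), Mcm5 (1.68), Tk1 (1.51), Cdc6 (1.33), Pole (1.20), Mcm10 (1.18), Rrm2 (1.18) and Chaf1a (1.04), each as a log2 difference. With a pseudocount of 5 CPM, 2 genes reached 2-fold.

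Mcm2 showed the largest difference on the log2(CPM + 1) scale, which shrinks differences at low CPM. As ratios of mean CPM in Oligodendrocyte to Neuron, Tk1 (2.885 to 0.363), Cdc6 (2.84 to 0.54) and Mcm5 (11.37 to 2.87) differed more. Mcm2 encodes a helicase subunit that also binds histones. Its libraries gave 25.6 and 25.5 CPM in Oligodendrocyte, 12.9, 13.5 and 13.8 in Astrocyte and 6.66, 5.99 and 7.28 in Neuron, from 173, 175 and 183 in NSC. No 2 of these groups overlapped. The log2 difference of Oligodendrocyte to Neuron was 1.80 (95% interval 1.63 to 1.97, adjusted p 6.07e-10), and that of Oligodendrocyte to Astrocyte was 0.88 (95% interval 0.71 to 1.05, adjusted p 8.13e-07).

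In Astrocyte vs Neuron, 20 genes were higher and 5 lower, against 40.3% and 22% of all tested genes, with a median of 0.21 where all tested genes had 0.10. Chaf1a alone reached 2-fold, where 6.39% of all tested genes did (1.18, 95% interval 1.00 to 1.36, adjusted p 7.10e-08). In Oligodendrocyte vs Astrocyte, 24 genes were higher and 2 (Rfc1 and Rpa2) lower, against 28.7% and 23.5% of all tested genes. The median there was 0.25 beside 0.04 for all tested genes, and 0 members reached 2-fold, where 4.53% of all tested genes did. Counting both directions, 25 of 44 members were called in Astrocyte vs Neuron (62.2% of all tested genes), 35 for Oligodendrocyte vs Neuron (67.5%) and 26 for Oligodendrocyte vs Astrocyte (52.2%).

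The balance of higher and lower calls at day 4 depended on the scaling of the libraries. With median-of-ratios scaling, Astrocyte vs Neuron gave 16 higher and 8 lower, Oligodendrocyte vs Neuron 23 and 7, and Oligodendrocyte vs Astrocyte 21 and 3. Over all 13342 tested genes the same scaling gave 4304 higher and 3982 lower, 4543 and 4276, and 3441 and 3556. With quantile normalization the members' counts were 14 and 9, 22 and 9, and 23 and 3, and the Astrocyte vs Neuron median was 0.01. Those of all tested genes were then 4055 and 4309, 4255 and 4603, and 3400 and 3704. Small day 4 differences are therefore relative to the scaling.

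For 12 genes the order Neuron, Astrocyte, Oligodendrocyte from low to high was called at each step: Mcm2, Mcm3, Mcm5, Mcm10, Cdc6, Cdt1, Orc2, Pold2, Fen1, Rrm2, Tk1 and Chaf1b. Of these, Mcm2, Mcm5, Mcm10, Cdc6, Orc2, Rrm2 and Tk1 (7 genes) kept all 3 calls under both other scalings. Leaving out a library in turn cost Mcm3, Pold2, Fen1, Rrm2 and Chaf1b at least 1 of their calls, so Mcm2, Mcm5, Mcm10, Cdc6, Orc2 and Tk1 kept the order in all alternatives tried. Gins1, Gmnn, Pcna, Rfc4, Pola2 and Rpa3 (6 genes) differed in no called comparison between media. Neither the full order nor the lack of any call was counted over all tested genes. Whether 12 and 6 of 44 members are unusual was therefore not tested. Taken singly, the steps were called for 40.3% (Neuron up to Astrocyte), 28.7% (Astrocyte up to Oligodendrocyte) and 43.9% (Neuron up to Oligodendrocyte) of the 13342 tested genes.

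Mcm7, Rfc3 and Rrm1 (3 genes) went against the order, being higher in Neuron than in both other media, and these calls held under both other scalings. Of all tested genes, 22% were called higher in Neuron than in Astrocyte and 23.6% higher than in Oligodendrocyte. The share with both calls was not counted. Mcm7 measured 40.8, 37.4 and 41.9 CPM in Neuron, 27.3, 25.2 and 26.3 in Astrocyte, and 31.1 and 33.4 in Oligodendrocyte, from 219, 221 and 236 in NSC. The 3 media did not overlap. The log2 difference of Astrocyte to Neuron was -0.59 (95% interval -0.72 to -0.45, adjusted p 3.06e-06), and that of Oligodendrocyte to Neuron was -0.30 (95% interval -0.45 to -0.15, adjusted p 0.00203). Rfc3 lost its call in Astrocyte vs Neuron without Astrocyte library 1 (adjusted p 0.0874) or 2 (adjusted p 0.143) or without Neuron library 3 (adjusted p 0.110), and its Astrocyte and Neuron libraries overlapped. It also lost this call with no filter on low values (adjusted p 0.0607) and with only the 2 groups compared (adjusted p 0.0749). In Oligodendrocyte vs Neuron, Rfc3 lost its call without either Oligodendrocyte library, without Neuron library 3 or with no filter (adjusted p 0.0536). Rrm1 lost its call there without Oligodendrocyte library 1 (adjusted p 0.0788) and with only the 2 groups compared (adjusted p 0.0632).

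The spans of 9 members overlap an opposite-strand gene with a mean above 1 CPM: Mcm7 (with Cops6 and Ap4m1), Chaf1a (with Ubxn6), Cdc45, Gins2, Orc2, Rfc4, Rfc5, Lig1 and Fen1. Cops6, at 85.8 CPM in NSC and 55.1 in Neuron, fell less than Mcm7. The library kit keeps strand, but whether the counting used it is not given in the sources used here, so reads of such pairs may not be separated.

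**Figure D3:**
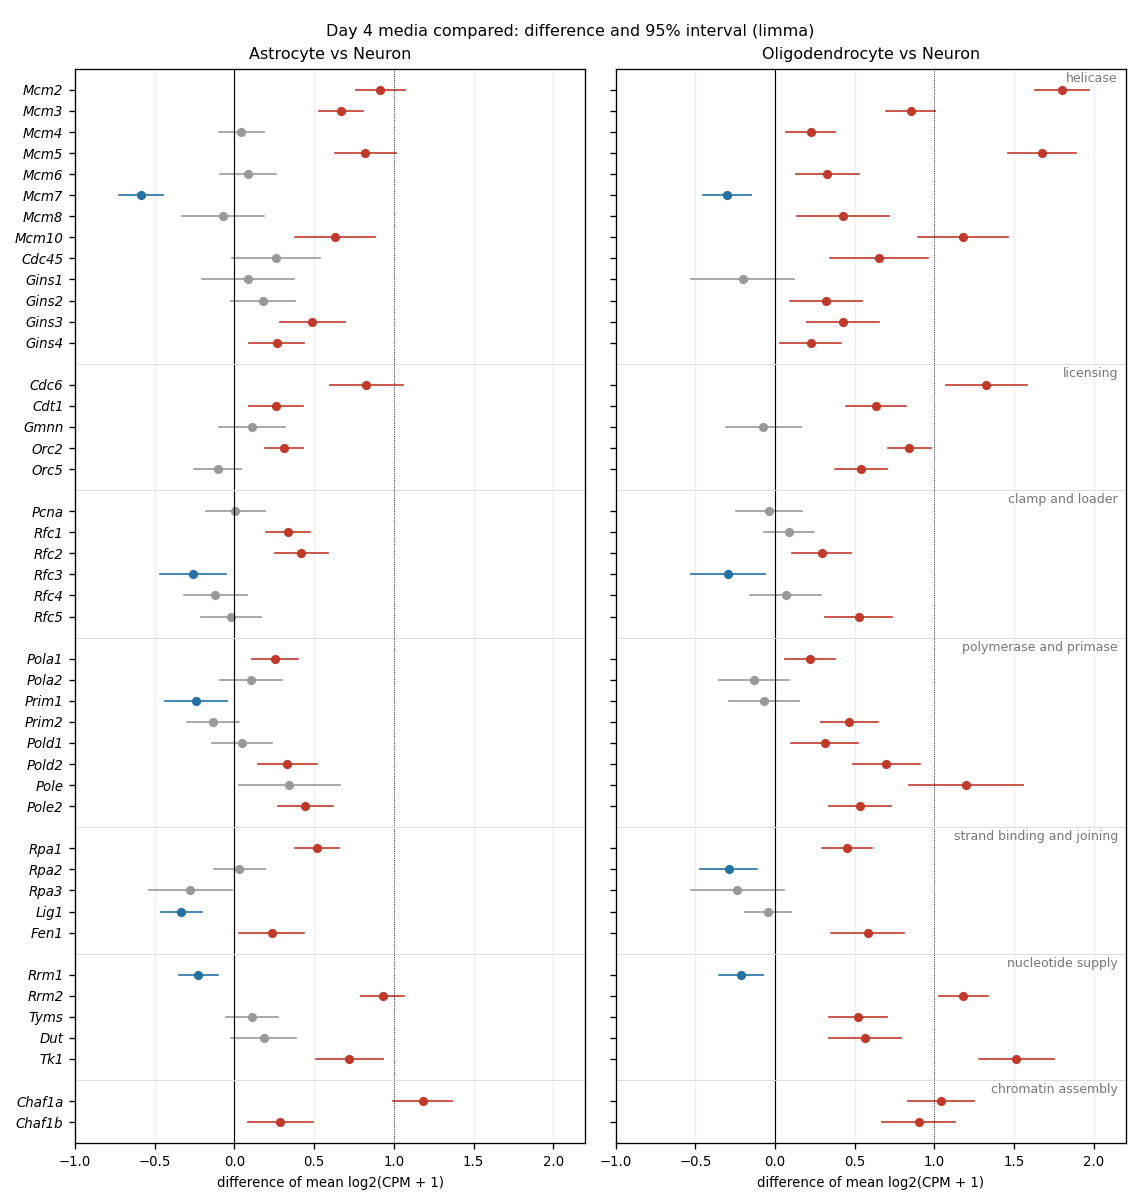
Difference of mean log2(CPM + 1) between day 4 media with its 95% interval from limma for the 44 genes, left Astrocyte vs Neuron and right Oligodendrocyte vs Neuron; red marks genes called higher, blue called lower, grey not called, and the dotted line is 2-fold. Chaf1a is past the line in both panels, and Mcm7, Rfc3 and Rrm1 are the genes called lower in both.

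Related gene lists showed how far the falls reached. For each list, the counts stand beside those of all tested genes. Of these, 35.6%, 39.6% and 32.2% were called lower than in NSC in Astrocyte, Neuron and Oligodendrocyte. Called higher were 6407, 5809 and 6412 of the 13342. Of 33 other initiation and fork genes, 29, 30 and 28 were called lower in Astrocyte, Neuron and Oligodendrocyte and 1, 2 and 2 higher, with median log2 fold changes of -1.58, -1.59 and -1.56. Top2a, the topoisomerase that unlinks replicated DNA and is also abundant in mitosis, fell from 731 ± 17.5 CPM (SD, n = 3) in NSC to 17.6 ± 4.21 (SD, n = 3) in Neuron. Top1, a topoisomerase also used in transcription, fell by 0.88, 0.70 and 0.98 on the log2 scale in Astrocyte, Neuron and Oligodendrocyte. Gmnc, a geminin relative known from multiciliated cells, was listed at 0 in all NSC libraries and at 1.79, 1.65 and 1.99 CPM in Astrocyte.

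Of 30 other nucleotide supply genes, 29 were tested, since Nme2 was under the filter. Called lower were 25, 26 and 24 in Astrocyte, Neuron and Oligodendrocyte, and 2, 2 and 5 were called higher, with medians of -1.03, -1.29 and -0.96. Shmt1, a folate enzyme that feeds thymidylate synthesis, fell most on the mean log2 fold change over the 3 media (-3.59). It went from 64.2 ± 2.62 CPM (SD, n = 3) in NSC to 2.89 ± 0.282 (SD, n = 3) in Neuron. Mthfd2, described below, fell further in Astrocyte and in Neuron. Paics, of purine synthesis, fell by 0.79, 0.42 and 1.01 on the log2 scale in Astrocyte, Neuron and Oligodendrocyte.

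Rrm2b, the alternative small subunit of ribonucleotide reductase that serves non-dividing cells, rose in all 3 media. Its libraries were at 17.0, 18.8 and 15.7 CPM in NSC, 28.2, 27.8 and 30.1 in Astrocyte, 38.2, 37.0 and 36.3 in Neuron, and 38.1 and 40.7 in Oligodendrocyte. Every day 4 library was above NSC. Its fold changes against NSC were, in log2, 0.71 (adjusted p 5.31e-07), 1.07 (adjusted p 6.78e-09) and 1.16 (adjusted p 1.21e-08) in Astrocyte, Neuron and Oligodendrocyte.

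Mthfd2, a mitochondrial folate enzyme named after its values were seen, fell by 3.74 and 4.36 on the log2 scale in Astrocyte and Neuron but by 1.76 in Oligodendrocyte. Its direct difference of Oligodendrocyte to Neuron was 2.60 (adjusted p 2.41e-10), which exceeded that of all 44 module genes.

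Among 13 E2F and pocket protein genes, 11, 11 and 10 were called lower and 2 higher in each medium, with medians of -1.13, -1.27 and -0.81. E2f7, an E2F repressor that is itself induced in S phase, fell most, from 34.9 ± 1.80 CPM (SD, n = 3) at day 0 to 1.62 ± 0.153 and 0.460 ± 0.135 under the astrocyte and neuron media (n = 3 each) and 2.30 ± 0.509 under the oligodendrocyte medium (n = 2). Tfdp1, the dimer partner of E2F proteins, fell by 1.70, 1.88 and 1.51 on the log2 scale. Rbl2, the pocket protein p130 typical of resting cells, rose by 1.13 (adjusted p 2.82e-09), 1.16 (adjusted p 2.13e-09) and 0.82 (adjusted p 3.36e-07) on the log2 scale. Rb1 was the other gene called higher in all 3 media.

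The 15 chromatin assembly partner genes were called lower in 15, 13 and 14 cases and higher in none, with medians of -1.29, -1.58 and -1.19. Uhrf1, which guides maintenance DNA methylation at the fork, fell most, from 209 ± 9.02 CPM (SD, n = 3) to 3.68 ± 0.538 (SD, n = 3) in Neuron. Rbbp4, the small CAF-1 subunit that also sits in other chromatin complexes, fell by 0.75, 0.55 and 0.73 on the log2 scale. Npat, a histone gene activator, fell by 0.23 in Astrocyte and 0.50 in Oligodendrocyte and was not called in Neuron (-0.02).

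**Figure D4:**
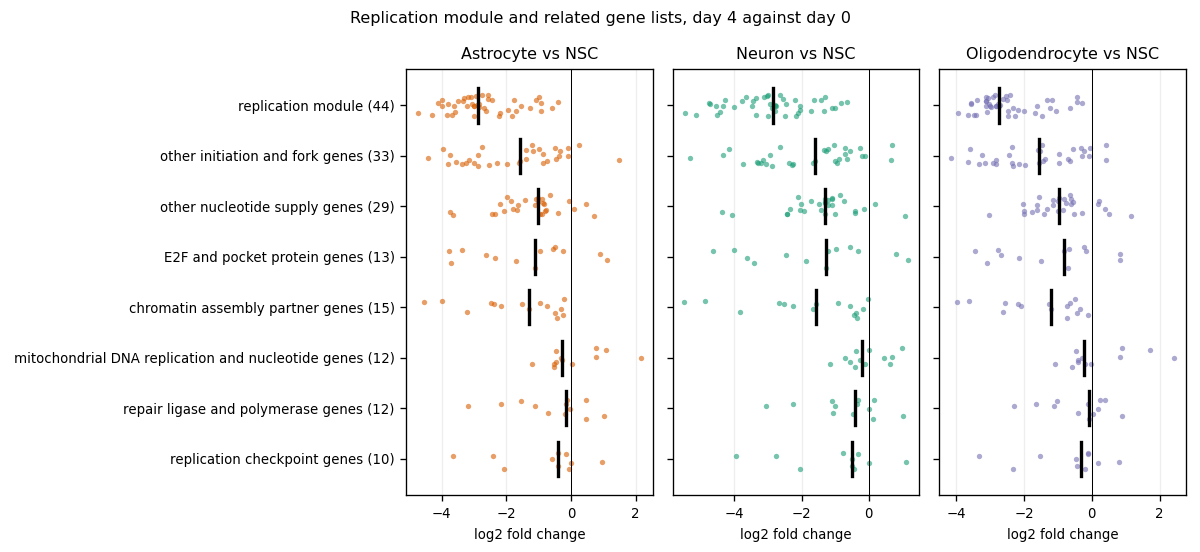
Log2 fold change of each tested gene against NSC for the 44-gene module and 7 related lists (number tested in brackets), 1 panel per medium; points are genes and the black bar is the list median. The module median lies between -2.73 and -2.87 in all 3 panels, and the medians of the mitochondrial, repair and checkpoint lists lie nearer to 0.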

How the data were processed

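RNA was measured in 11 libraries of cultured mouse cells in 4 groups taken from the labels. Per the labels' protocols, the libraries were made with a strand-specific TruSeq mRNA kit and sequenced on an Illumina HiSeq instrument. The deposited table gives CPM (reads of a gene scaled to a common library total) with 2 decimals and mm9 coordinates, per the file headers. The submitters' processing notes name bcl2fastq 1.8.4, TopHat2 2.0.8, HTSeq 0.6.1, edgeR 3.2.4, R 3.0.0, HOMER and the build NCBIM37, without roles or order. Read filters, and the use of strand in counting, were not stated in any source used here. The listed genes of a library summed to 75.0% to 80.2% of that total, and 1 read was worth an estimated 0.0151 to 0.0203 CPM, which limits precision at low values. Since whole reads could not be recovered for the table, no count test was run.

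Genes at 1 CPM or more in at least 2 libraries (13342 of 37991) were tested with limma 3.58.1 in R 4.3.3 on log2 values computed from the deposited CPM with a pseudocount of 1. The fit held all 11 libraries with 1 mean per group (7 residual and 5.96 prior degrees of freedom), a mean-variance trend and two-sided tests. P-values were adjusted by Benjamini-Hochberg within each of the 6 comparisons and called under 0.05. The script was tested on simulated data. Members and gene lists were chosen with earlier results of these data known. Values in every library are given for the member of each role with the largest and the smallest mean absolute log2 fold change against NSC, and for further members chosen after their values were seen (Mcm2, Mcm7, Pcna and others). From each other list, the largest fall, the largest rise and the highest mean CPM are named. Levels per kilobase use the union of exons in GENCODE vM21 (GRCm38). Alternatives covered the pseudocount, the filter, the scaling, the libraries in the fit, the trend, the replicate block and leaving out each library.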

Additional observations from a re-analysis of the deposited data

How the results depend on the processing

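Against NSC, all 44 genes were called lower under every alternative tried, and no call between media reversed. Of the called members, 8 of 25 in Astrocyte vs Neuron, 11 of 35 in Oligodendrocyte vs Neuron and 10 of 26 in Oligodendrocyte vs Astrocyte lost their call under at least 1 alternative. The lower calls in Astrocyte vs Neuron (5 members) numbered 3 with no filter, 8 with median-of-ratios scaling, 9 with quantile normalization and 3 with only the 2 groups compared. Those in Oligodendrocyte vs Neuron (4) numbered 7 and 9 with these scalings. Members at least 2-fold higher in Astrocyte vs Neuron (1) numbered 5 with a pseudocount of 0.1 CPM and 0 with 5, in Oligodendrocyte vs Neuron (8) 2 with 5, and in Oligodendrocyte vs Astrocyte (0) 1 with 0.1. The scalings and pseudocounts change the values by construction, and other causes were not tested.

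Leaving out 1 library gave 23 to 26 calls in Astrocyte vs Neuron (18 to 22 higher, 3 to 6 lower), 28 to 35 in Oligodendrocyte vs Neuron (25 to 31 higher, 2 to 4 lower, 6 to 8 at least 2-fold higher) and 19 to 24 in Oligodendrocyte vs Astrocyte (18 to 21 higher, 1 to 4 lower). The lower calls were 3 without Astrocyte library 1 or 2 or Neuron library 3 in the first comparison, 2 without Oligodendrocyte library 1 in the second, and 4 without Astrocyte library 2 and 1 without Oligodendrocyte library 2 in the third. Where 1 Oligodendrocyte library was left, it was assumed to vary like the other groups.

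The replicate numbers were not taken as pairs, since the labels do not say what a shared number means. In their deviations from the group mean, same-numbered libraries of Astrocyte and Neuron correlated at 0.41, -0.09 and -0.33. Those of NSC and Astrocyte correlated at 0.09, 0.17 and 0.39, and those of NSC and Neuron at 0.22, -0.51 and -0.32. Pairs with an Oligodendrocyte library ran from -0.03 to 0.21. With the replicate block, 24 members were called in Astrocyte vs Neuron (19 higher, 5 lower), 35 in Oligodendrocyte vs Neuron, 26 in Oligodendrocyte vs Astrocyte and 44 in each comparison with NSC.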

Other observations

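Genes of mitochondrial DNA replication did not share the uniform fall of the nuclear machinery. Of 12 tested, 7, 6 and 6 were called lower and 4 higher in each of Astrocyte, Neuron and Oligodendrocyte, with median log2 fold changes against NSC of -0.29, -0.19 and -0.23. Of all 13342 tested genes, 35.6%, 39.6% and 32.2% were called lower and 6407, 5809 and 6412 higher. Polg, the catalytic subunit of the mitochondrial polymerase, kept 58.6 ± 3.14, 61.1 ± 7.97 and 63.0 ± 1.21 CPM (SD, n = 3, 3 and 2) of 136 ± 0.431 (SD, n = 3). Slc25a33, a mitochondrial pyrimidine nucleotide carrier, was at 11.6 ± 0.835 CPM (SD, n = 3) at day 0 and rose to 56.1 ± 0.789 and 16.3 ± 2.65 under the astrocyte and neuron media (n = 3 each) and 67.2 ± 2.93 under the oligodendrocyte medium (n = 2). Its direct log2 difference of Oligodendrocyte to Neuron was 1.99 (adjusted p 3.05e-09). Tk2 and Dguok, the mitochondrial kinases of the nucleoside salvage pathway, were called higher in all 3 media, unlike the cytosolic Tk1, and were named after their values were seen.

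Of 12 repair ligase and polymerase genes, 6, 8 and 5 were called lower and 3, 1 and 3 higher. Over all tested genes, 35.6%, 39.6% and 32.2% were called lower, and 6407, 5809 and 6412 of 13342 higher. Polq, the polymerase of end joining by short homologies, fell from 25.2 ± 2.97 CPM (SD, n = 3) in NSC to 1.87 ± 0.147 (SD, n = 3) in Astrocyte, and Poli, a translesion polymerase, rose by 1.04, 1.00 and 0.90 on the log2 scale in Astrocyte, Neuron and Oligodendrocyte. Rev3l, the catalytic subunit of polymerase zeta, fell by 1.54, 1.11 and 1.04. Of 10 replication checkpoint genes, 7, 8 and 6 were called lower and 1, 1 and 2 higher, beside the same counts over all tested genes. Chek1, the S phase checkpoint kinase, fell by 3.65, 3.96 and 3.31, whereas Rad9b rose by 0.97, 1.10 and 0.82. Hus1, a clamp subunit of that checkpoint, was called in Oligodendrocyte alone (0.19, adjusted p 0.0396), and its differences in Astrocyte and Neuron were both 0.00.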
